A study of Mus musculus with 16 samples.

Results

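Membrane carriers of sugars, amino acids, small peptides and monocarboxylates were described in mouse colon across genotype and diet. The carriers are the genes whose symbol on the array platform belongs to 1 of 11 solute carrier families (Slc1, Slc2, Slc3, Slc5, Slc6, Slc7, Slc15, Slc16, Slc36, Slc38 and Slc43). They were picked by name and not by any measured value. Of 97 such symbols, read by 164 array features, 95 symbols with 156 features had a value in each of 8 groups and were kept, among 25892 genes and unnamed features tested. The features of a symbol were averaged. Slc15a5 and Slc6a5 (a glycine carrier of neurons) were not kept.

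The groups were made of male mice that ate 1 of 4 diets based on AIN-76A for 6 weeks, began at 28 to 35 days of age and were sampled after 77 days of age. Il10-/- mice (strain B6.129P2-Il10tm1Cgn) carry a disrupted gene for interleukin 10, a cytokine that restrains immune responses to gut bacteria. C57BL/6J mice served as their controls. Both genotypes had been given Enterococcus strains and complex intestinal flora by mouth, and food was matched to what the Il10-/- mice ate. The diets were CO (the AIN-76A diet itself), and 3 diets that held 1% corn oil and 3.7% of a purified fatty acid. That acid was oleic acid in OA, which serves as the control for the other two, eicosapentaenoic acid of the n-3 series in EPA, and arachidonic acid of the n-6 series in AA. Each group has 2 arrays, and each array read RNA pooled in equal amounts from the colons of 2 to 3 mice. Whether different mice went into the pools of a group is not said in the labels. The p-values therefore measure the spread between these arrays alone, which may be partly technical. The number of arrays limits the precision.

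Sugars, amino acids and short-chain acids cross cell membranes mainly through carriers. In the colon, epithelial cells take up butyrate and other acids made by bacteria and burn them as fuel, while most dietary glucose, fructose, amino acids and peptides are taken up upstream in the small intestine. Immune cells that have been activated take up much glucose and amino acid, run glycolysis and pass lactate out. Many carriers of these families work with a partner protein that brings them to the surface, such as Slc3a2 for several Slc7 carriers and basigin or embigin for lactate carriers.

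Values are log2 ratios of colon RNA over a common reference RNA of healthy growing Swiss mice, which pooled small intestine, colon, kidney, liver and fetuses. A level of 0 therefore means the same signal as in that mix, and ratios of different carriers say nothing of which is more abundant. Base 2 and the direction of the ratio were not stated, and the direction was settled from genes of kidney and liver, whose median lay below 0 on 16 of 16 arrays. A difference is Il10-/- minus C57BL/6J in log2 ratio units with its standard error (SE), and a carrier is called where limma's moderated test, adjusted by Benjamini-Hochberg over 25892 tests, gave an adjusted p under 0.05. Every array also had 1 value that stood at 326 to 985 of its features, written here as tied. Such a value may not measure its gene. Among the carriers it touched the only feature of Slc2a1, on 10 of 16 arrays, and 1 of the 3 features of Slc16a1, on 2 arrays.

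Some arrays stood apart. The C57BL/6J arrays of EPA pool 1 and AA pool 1 had a mean of 7 small intestine markers at -0.83 and -0.71, against -2.73 to -2.01 on the Il10-/- arrays and -2.04 to -1.60 on the other 6 C57BL/6J arrays. Of these markers Fabp2 was tied on 15 arrays and Sis on 1, C57BL/6J AA pool 1. The mean of the 5 never tied was -1.17 and -1.01 on those 2 arrays, against -2.83 to -2.23 on the Il10-/- arrays and -2.34 to -1.92 on the other 6. Single markers differed. Apoa1 (0.00 and -0.15) and Apob (-0.25 and 0.06) were above the other 6 C57BL/6J arrays on both. Lct (-3.82 and -4.08) lay within the range of those 6, -4.51 to -3.50. So did Apoa4 on EPA pool 1 (-2.16) and Alpi on AA pool 1 (0.17). Below, high small intestine markers on these 2 arrays refers to the mean. The array titled Il10-/- OA pool 1 has a source name that says EPA. It was used as OA, as titled. The colon label was checked against 9 markers of absorptive colonocytes, of which 3 were never tied, while Krt20, Guca2a and Vil1 were tied on all 16 arrays. The mean of the 9 was -0.20 to 0.49 on Il10-/- arrays and 0.33 to 0.52 on C57BL/6J arrays. That of the 3 never tied was 0.35 to 1.23 on Il10-/- arrays and 0.61 to 1.27 on C57BL/6J arrays, ranges that overlap widely. Markers of leukocytes (8 of 10 called higher in Il10-/- mice) and of fat cells (6 of 6 called lower) moved with genotype. So did markers of small intestine (5 of 7 lower), smooth muscle (4 of 7), endothelium (3 of 5), neurons and glia (3 of 6) and endocrine cells (3 of 6). Over everything tested, 9.14% were called higher and 8.12% lower. These counts include called markers with tied values: Acta2 on 16 arrays, Fabp2 on 15, Fabp4 on 12 and Sis on 1. The part of these cell types in the carriers' differences was not tested. In pooled tissue, fewer cells of a type and less RNA per cell cannot be told apart.

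Some carriers were higher and others lower in Il10-/- mice. Averaged over the 4 diets, 27 of 95 carriers (28.4%) were called, against 17.3% of all genes and features. Of these, 9 (9.47%) were higher in Il10-/- mice, where the background is 9.14%, and 18 (18.9%) were lower, where the background is 8.12%. The split depended on scaling, since quantile normalization called 10 higher and 11 lower (47.6% higher, against 33.3% here). The median difference was -0.07 over the carriers and -0.01 over everything tested, and the median size of a difference was 0.13 against 0.08. The difference was below 0 for 69 of 95 carriers, called or not (72.6%, background 54.3%). It was below 0 on each of the 4 diets for 29 carriers (30.5%, background 17.1%) and above 0 on each for 10 (10.5%, background 15.6%). A difference of at least 1 in either direction was reached by Slc16a3, Slc5a8, Slc16a9 and Slc2a4 (4.21%, background 0.966%). For 7 carriers the 8 Il10-/- arrays did not overlap the 8 C57BL/6J arrays (7.37%, background 4.63%), with 4 above (background 2.83%) and 3 below (background 1.8%).

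**Figure D1:**
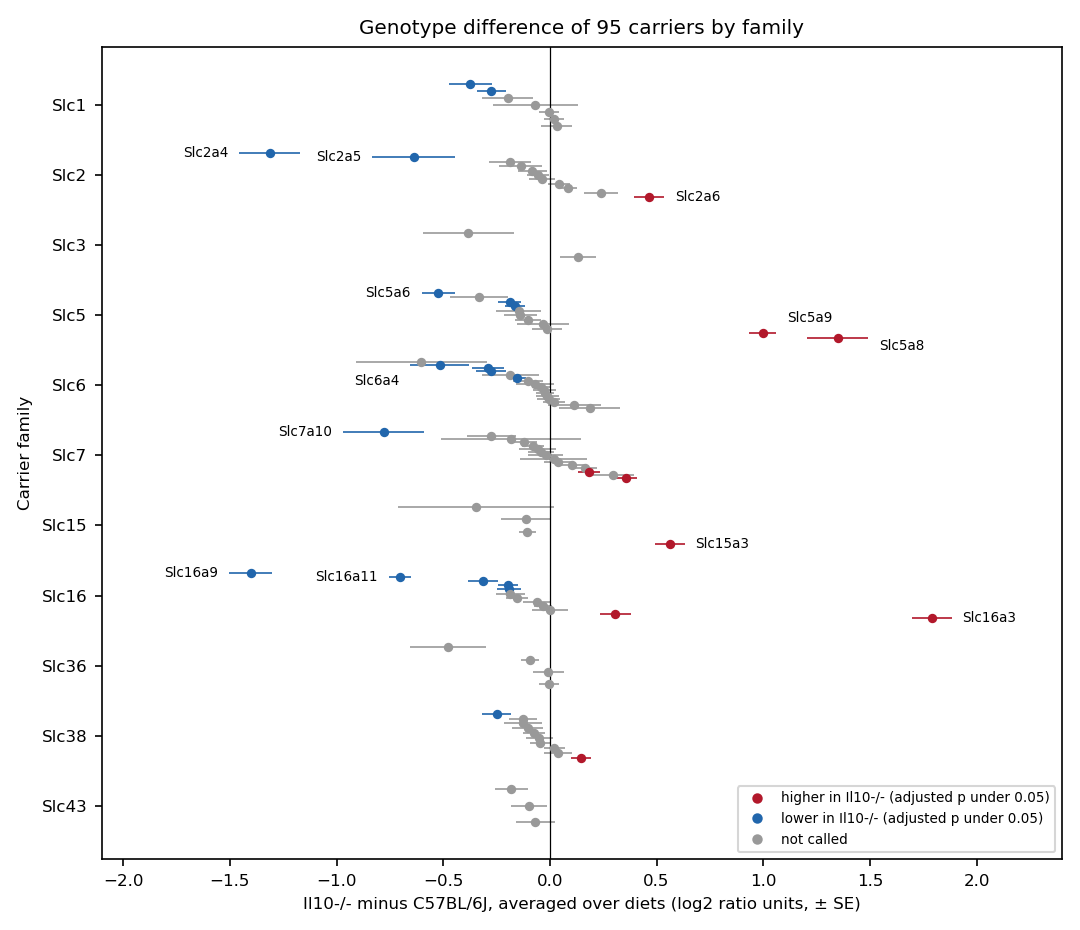
Genotype difference of each of the 95 carriers, in rows by family, with the SE of the fit. The x axis is Il10-/- minus C57BL/6J averaged over 4 diets in log2 ratio units, and coloured points are called. The Slc16 family holds both ends of the plot, with Slc16a3 at 1.79 and Slc16a9 at -1.40.

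The Slc16 family, which moves monocarboxylates and related molecules, had the most called members, 2 higher and 5 lower of 12. Over everything tested, 9.14% were called higher and 8.12% lower. Slc16a3 encodes MCT4, the lactate exporter of cells that run glycolysis. On the 8 Il10-/- arrays it lay between -0.68 and 0.16 (median -0.29), against -2.52 to -1.39 (median -2.11) on the 8 C57BL/6J arrays. Every Il10-/- array was above every C57BL/6J array. The difference of 1.79 ± 0.09 (adjusted p = 2.49e-07), a 3.46-fold higher level if the base is 2, was the largest among the carriers in either direction. Slc16a6, known to release ketone bodies in zebrafish liver, was also higher, with -0.26 ± 0.12 on Il10-/- arrays against -0.56 ± 0.19 on C57BL/6J arrays (SD, n = 8 each). This difference was 0.31 ± 0.07 (limma's adjusted p = 0.0119).

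Members of the same family went the other way. Slc16a9 encodes MCT9, known for moving carnitine. It lay between -2.31 and -1.11 (median -2.00) on Il10-/- arrays, against -0.85 to -0.27 (median -0.45) on C57BL/6J arrays, again with no overlap. The difference was -1.40 ± 0.10 (adjusted p = 1.74e-06), a 2.64-fold lower level. Slc16a11, a liver monocarboxylate carrier, lay between -1.58 and -1.14 (median -1.41) on Il10-/- arrays, against -0.92 to -0.45 (median -0.73) on C57BL/6J arrays. All 8 Il10-/- arrays were below, and the difference was -0.70 ± 0.05 (adjusted p = 2.18e-06). Its neighbour on chromosome 11, Slc16a13, was lower by less, at -0.20 ± 0.05 (adjusted p = 0.0122), with arrays that overlapped. The creatine carrier Slc16a12 differed by -0.31 ± 0.07 (adjusted p = 0.00868), a call that ended under quantile normalization (adjusted p = 0.336).

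Slc5a8 and Slc16a1 both bring butyrate into colon cells, and their calls had opposite signs. Slc5a8 encodes SMCT1, which takes up butyrate, lactate and nicotinate with sodium. It lay between -0.71 and 0.15 (median -0.05) on Il10-/- arrays, against -2.01 to -0.95 (median -1.52) on C57BL/6J arrays. The genotypes did not overlap, and the difference was 1.35 ± 0.14 (adjusted p = 3.81e-05), a 2.55-fold higher level. Slc16a1, which encodes the proton-coupled carrier MCT1, was at 0.28 ± 0.11 over the Il10-/- arrays against 0.47 ± 0.13 over the C57BL/6J arrays. The difference averaged over diets was -0.19 ± 0.06 (adjusted p = 0.036). On EPA alone Slc16a1 was at 0.40 in Il10-/- mice against 0.37 in C57BL/6J mice. Its 3 features read -0.40, -0.15 and -0.02, the last of them tied on 2 arrays. Leaving out 1 array ended the call of Slc16a1 for 11 of 16 arrays (adjusted p between 0.0539 and 0.0911), as did the median of its features (adjusted p = 0.256). Of 9 colonocyte markers 1 was called, the chloride exchanger Slc26a3, which was lower, and its part in these values was not tested. Neither the lactate carrier Slc16a7 (-0.06 ± 0.06, adjusted p = 0.613) nor the renal Slc5a12 (-0.15 ± 0.11, adjusted p = 0.415) was called.

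**Figure D2:**
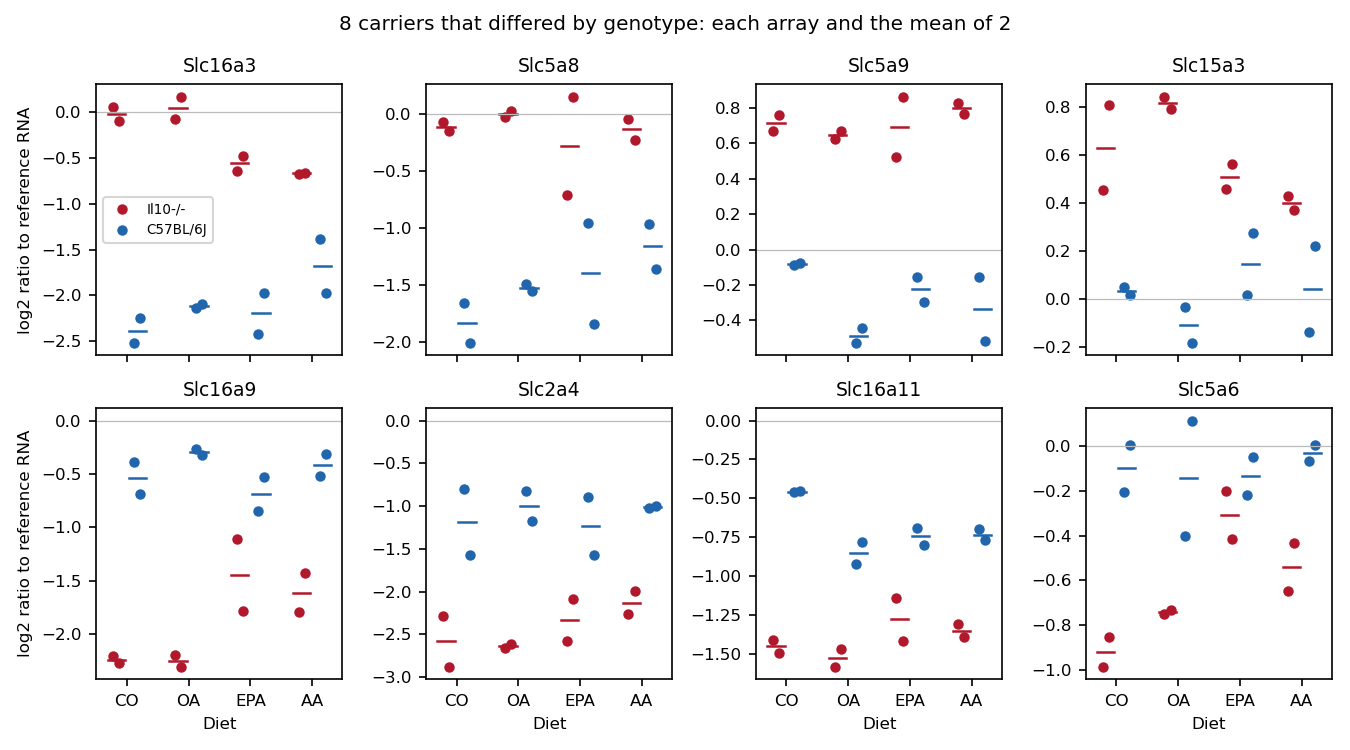
Each array of 8 carriers called by genotype, by diet, with a bar at the mean of 2 arrays. The y axis is the log2 ratio to the reference RNA. Slc16a3, Slc5a8, Slc5a9 and Slc15a3 are higher on every Il10-/- array than on any C57BL/6J array, and Slc16a9, Slc2a4 and Slc16a11 are lower on every one. Slc5a6 overlaps.

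The start regions of 4 of these genes are shown because they hold the carriers with the largest changes in monocarboxylate transport, in both directions. They are RefSeq sequences of build GRCm38.p6, 250 bases before to 50 bases after the annotated start, written 5′ to 3′ on the gene's strand. Slc16a3 is at chr11:120948817-120949116 (+), Slc5a8 at chr10:88885742-88886041 (+), Slc16a9 at chr10:70245026-70245325 (+) and Slc16a11 at chr11:70213660-70213959 (+). Capitals mark ACGTG on either strand, the core of the element bound by hypoxia-inducible factors.
Slc16a3: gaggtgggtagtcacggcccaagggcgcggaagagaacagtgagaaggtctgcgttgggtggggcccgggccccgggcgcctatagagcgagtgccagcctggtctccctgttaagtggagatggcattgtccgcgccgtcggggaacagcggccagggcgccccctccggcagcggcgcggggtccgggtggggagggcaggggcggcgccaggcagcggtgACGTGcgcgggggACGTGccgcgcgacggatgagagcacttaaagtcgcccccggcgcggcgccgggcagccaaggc
Slc5a8: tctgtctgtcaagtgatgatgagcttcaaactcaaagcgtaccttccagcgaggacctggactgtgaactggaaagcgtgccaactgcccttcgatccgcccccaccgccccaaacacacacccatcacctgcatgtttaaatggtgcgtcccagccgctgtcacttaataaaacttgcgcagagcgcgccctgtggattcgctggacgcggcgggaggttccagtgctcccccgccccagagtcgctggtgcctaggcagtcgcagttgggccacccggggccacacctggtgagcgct
Slc16a9: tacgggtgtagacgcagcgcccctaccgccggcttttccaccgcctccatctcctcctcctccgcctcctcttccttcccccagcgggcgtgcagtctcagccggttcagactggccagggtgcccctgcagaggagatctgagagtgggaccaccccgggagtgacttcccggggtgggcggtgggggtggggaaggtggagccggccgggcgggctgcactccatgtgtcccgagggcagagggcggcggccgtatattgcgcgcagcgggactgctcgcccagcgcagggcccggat
Slc16a11: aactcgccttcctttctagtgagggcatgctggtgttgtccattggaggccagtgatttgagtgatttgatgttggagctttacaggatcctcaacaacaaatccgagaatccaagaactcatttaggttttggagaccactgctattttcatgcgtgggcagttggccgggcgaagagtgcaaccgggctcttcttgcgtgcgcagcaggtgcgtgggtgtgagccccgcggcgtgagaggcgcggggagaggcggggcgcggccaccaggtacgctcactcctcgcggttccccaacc
The motif was found 2 times in the Slc16a3 window, both on the gene's strand, beginning at -27 and -14 relative to the start, and in none of the other 3. It occurs in 19.6% of 32851 promoters of this length and in 26 of 91 promoters (28.6%) of the 69 carriers that the table holds, among them Slc16a1, Slc2a1 and Slc3a2. A match is a description of the letters in this window.

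Hif1a, the gene of the oxygen-regulated subunit of hypoxia-inducible factor, was higher in Il10-/- mice, at 1.12 ± 0.33 against -0.11 ± 0.36 in C57BL/6J mice (SD), and differed by 1.22 ± 0.12 (adjusted p = 2.02e-05). It belongs to a list of 37 partners of the carriers and genes of glucose, lactate and amino acid use, of which 32 were measured. In that list 11 were called higher (background 9.14%) and 5 lower (background 8.12%), with a median difference of -0.01. Among genes of glycolysis, the hexokinase Hk2 (0.48 ± 0.13, tied on 3 arrays), the phosphofructokinase Pfkp (0.44 ± 0.05) and its activator gene Pfkfb3 (0.40 ± 0.09) were higher. Hk1 (0.03 ± 0.06, adjusted p = 0.773), Hk3 (0.15 ± 0.06, adjusted p = 0.138) and Pkm (0.24 ± 0.11, adjusted p = 0.19), of the same pathway, were not called. Emb, which encodes the carrier partner embigin, was higher by 0.45 ± 0.07, while Bsg, which encodes basigin, the partner of MCT4 and MCT1, was not called (-0.42 ± 0.23, adjusted p = 0.249). Ldhb, the lactate dehydrogenase of oxidative tissues, was lower (-0.82 ± 0.18), and Ldha was tied on all 16 arrays, so its level was not read. Hcar2, the receptor for butyrate and nicotinate, was higher by 0.36 ± 0.09.

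Of 17 carriers of sugars and polyols in the Slc2 and Slc5 families, 2 were called higher and 4 lower (35.3%, background 17.3%). Slc5a9 encodes SGLT4, a sodium-coupled carrier of mannose. It lay between 0.52 and 0.86 (median 0.72) on Il10-/- arrays, against -0.53 to -0.07 (median -0.23) on C57BL/6J arrays. The genotypes did not overlap, and the difference was 1.00 ± 0.07 (adjusted p = 9.00e-07). Slc2a6, which encodes the glucose carrier GLUT6 of leukocytes, was at 0.79 ± 0.14 over Il10-/- arrays against 0.33 ± 0.16 over C57BL/6J arrays, a difference of 0.47 ± 0.07 (adjusted p = 0.000658). The 2 genotypes overlapped, since C57BL/6J CO pool 1 was at 0.63 and Il10-/- AA pool 2 at 0.51.

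Slc2a4 encodes GLUT4, the insulin-responsive glucose carrier of muscle and fat. It lay between -2.88 and -2.00 (median -2.43) on Il10-/- arrays, against -1.57 to -0.80 (median -1.01) on C57BL/6J arrays, without overlap. The difference was -1.31 ± 0.14 (adjusted p = 4.63e-05), a 2.49-fold lower level. Slc2a5, the fructose carrier, was between -3.42 and -2.56 (median -3.14) on Il10-/- arrays, against -3.16 to -1.28 (median -2.53) on C57BL/6J arrays, and its difference was -0.64 ± 0.20 (adjusted p = 0.0416). Its highest values, -1.28 and -1.94, were on the C57BL/6J arrays with high small intestine markers. Without both of these the difference was -0.36 ± 0.09 (adjusted p = 0.0214). Leaving out 1 array ended the call of Slc2a5 for 12 of 16 arrays (adjusted p between 0.0503 and 0.0997), as did quantile normalization (-0.42, adjusted p = 0.144). The renal carrier Slc5a10 (-0.19 ± 0.05) and the myo-inositol carrier Slc5a3 (-0.17 ± 0.05) were lower by less, and the 2 features of Slc5a3 read -0.34 and 0.01. Leaving out 1 array ended the call of Slc5a10 for 11 arrays (adjusted p between 0.0518 and 0.0791) and that of Slc5a3 for 9 (between 0.0502 and 0.0745). Under quantile normalization Slc5a10 read 0.04, and Slc5a3 lost its call (adjusted p = 0.116).

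The best known glucose carriers of gut and blood cells were not called. Slc5a1 encodes SGLT1, the sodium-coupled glucose carrier of the gut lumen, and was at -0.77 ± 0.15 on Il10-/- arrays against -0.73 ± 0.32 on C57BL/6J arrays (adjusted p = 0.896). Slc2a2, the carrier of liver and of the inner face of the gut epithelium, differed by -0.14 ± 0.10 (adjusted p = 0.428). Slc2a3, which encodes the high-affinity GLUT3, differed by 0.04 ± 0.05 (adjusted p = 0.638). Slc2a1, the widespread GLUT1, had a value of its own on 6 arrays at most, so its difference of -0.04 ± 0.06 measures little. A p that misses the threshold does not show that these levels were alike.

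Of 48 amino acid carriers, 3 were called higher and 5 lower (16.7%, near the 17.3% of all genes and features). Slc7a11 encodes xCT, which exchanges glutamate for cystine and is paired with Slc3a2. It lay between 0.11 and 0.58 (median 0.40) on Il10-/- arrays, against -0.09 to 0.20 (median -0.01) on C57BL/6J arrays. The overlap came from Il10-/- AA pool 1 at 0.11, which was below C57BL/6J EPA pool 2 at 0.20 and C57BL/6J OA pool 2 at 0.16, and the difference was 0.36 ± 0.05 (adjusted p = 0.000425). Its 3 features disagreed in size, at 0.51, 0.47 and 0.05, the last of them not called by itself (adjusted p = 0.768). Slc3a2, the shared heavy chain, was at -0.37 ± 0.18 on Il10-/- arrays against -0.50 ± 0.19 on C57BL/6J arrays (adjusted p = 0.332).

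The Slc7a11 promoter (RefSeq, GRCm38.p6, chr3:50443564-50443863, minus strand) is shown because Asns, the asparagine synthetase gene that responds to amino acid shortage, was also higher, by 1.06 ± 0.12 (adjusted p = 8.16e-05). Capitals mark TGATGCAA on either strand, a form of the amino acid response element.
Slc7a11: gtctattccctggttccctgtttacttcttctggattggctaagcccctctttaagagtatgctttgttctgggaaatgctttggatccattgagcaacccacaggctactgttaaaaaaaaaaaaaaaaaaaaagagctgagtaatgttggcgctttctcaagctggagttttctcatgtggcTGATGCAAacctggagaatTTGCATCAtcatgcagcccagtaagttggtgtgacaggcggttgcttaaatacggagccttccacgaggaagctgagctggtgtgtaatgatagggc
The motif lay on each strand, beginning at -66 and -47. It occurs in 0.895% of 32851 promoters and in 4 of the 91 carrier promoters, which belong to Slc7a11, Slc1a4 and Slc7a7. These 3 genes did not share a direction. Slc1a4, a carrier of alanine, serine and cysteine, was lower, at -0.27 ± 0.07 (adjusted p = 0.0142), and Slc7a7, which passes cationic amino acids out of cells, was not called (0.02 ± 0.16, adjusted p = 0.962). Of other genes of that response, Atf4, the gene of its transcription factor, was not called (0.26 ± 0.08, adjusted p = 0.0522), nor were Ddit3 (-0.04 ± 0.05) and Trib3 (0.02 ± 0.05).

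Slc7a5 and Slc7a2 lay near the threshold, on either side of it. Slc7a5 encodes LAT1, the leucine carrier of activated lymphocytes, and was at 0.50 ± 0.17 on Il10-/- arrays against 0.21 ± 0.31 on C57BL/6J arrays, a difference of 0.30 ± 0.10 (adjusted p = 0.0502). The highest of all 16 values, 0.86, was that of C57BL/6J CO pool 1, and Slc7a5 was called in 9 of 27 other settings. Slc7a2, which encodes the arginine carrier CAT2 of macrophages, was called at 0.18 ± 0.05 (adjusted p = 0.0382) on 7 arrays per genotype, a call that ended without 1 array for 7 arrays (adjusted p between 0.0575 and 0.0874). Enzymes that use arginine moved in both directions: Nos2 (0.96 ± 0.11) and Arg1 (0.71 ± 0.09) were higher and Arg2 (-0.80 ± 0.08) was lower. Ido1, whose enzyme breaks down tryptophan, was higher by 2.79 ± 0.14, while the aromatic amino acid carrier Slc16a10 was not called (-0.19 ± 0.07, adjusted p = 0.0935). The 4 features of Slc16a10 disagreed in size, at -0.58, -0.14, -0.02 and -0.01, and the first was called by itself (adjusted p = 0.0208). Slc6a14, a broad amino acid carrier of the colon, was at 1.23 ± 0.23 on Il10-/- arrays against 1.04 ± 0.48 on C57BL/6J arrays (adjusted p = 0.447).

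Among carriers of glutamine and glutamate, Slc38a3 and Slc1a3 were lower. Slc38a3, a glutamine carrier of liver and kidney, differed by -0.25 ± 0.07 (adjusted p = 0.0234), and Glul, which encodes glutamine synthetase, by -0.31 ± 0.06 (adjusted p = 0.00302). The Slc38a3 call ended without 1 array for 7 arrays (adjusted p between 0.0508 and 0.064) and under quantile normalization (-0.06, adjusted p = 0.616). Slc1a5, which brings in glutamine, differed by -0.20 ± 0.12 (adjusted p = 0.316), and the neutral amino acid carrier Slc38a2 by -0.08 ± 0.05 (adjusted p = 0.368). Slc1a3, the glutamate carrier of glia, was at 0.15 ± 0.07 on Il10-/- arrays against 0.53 ± 0.42 on C57BL/6J arrays (adjusted p = 0.0213). Its call ended without Il10-/- CO pool 1, C57BL/6J EPA pool 1 or C57BL/6J OA pool 2 (adjusted p between 0.0504 and 0.0555). Of 6 markers of neurons and glia 3 were called lower too: Uchl1 (-0.58), S100b (-0.45) and Snap25 (-0.30). Elavl4 (-0.18), Syp (-0.05) and the glial Gfap (-0.05) were not called. The mean of the 6 was -0.04 to 0.26 on Il10-/- arrays and 0.22 to 0.60 on C57BL/6J arrays. Slc1a3 was highest, at 1.40, on C57BL/6J AA pool 1, where this mean was the lowest of the C57BL/6J arrays. The part of these cells in the values of Slc1a3 and Slc6a17 was not tested. The vesicle carrier Slc6a17 of neurons was lower by a small amount (-0.15 ± 0.04, adjusted p = 0.0187). Its call ended without Il10-/- OA pool 1 (adjusted p = 0.0523) and with the median of its features (adjusted p = 0.109). The leucine carrier Slc43a2 was not called (-0.10 ± 0.08, adjusted p = 0.502), and none of the Slc3, Slc36 and Slc43 families was. The remaining called amino acid carrier, Slc38a10, was higher by 0.15 ± 0.05 (adjusted p = 0.0448), and its call ended without 1 array for 14 arrays (adjusted p between 0.0557 and 0.147). Slc38a10, Slc7a2 and Slc5a10 are named after their values were seen.

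Of 4 carriers of peptides and histidine, 1 was called higher (background 9.14%). Of 10 carriers of transmitters, osmolytes and creatine 3 were called lower, and of 3 carriers of vitamins, iodide and choline 1 was (background 8.12%). Slc15a3 moves histidine and peptides out of lysosomes in immune cells. It lay between 0.37 and 0.84 (median 0.51) on Il10-/- arrays, against -0.18 to 0.27 (median 0.02) on C57BL/6J arrays. There was no overlap, and the difference was 0.56 ± 0.07 (adjusted p = 0.000145). Slc5a6, which encodes the carrier of biotin and pantothenate, lay between -0.99 and -0.20 (median -0.69) on Il10-/- arrays, against -0.40 to 0.11 (median -0.06) on C57BL/6J arrays. The difference was -0.52 ± 0.08 (adjusted p = 0.000483), with overlap at the Il10-/- EPA pool 1 value of -0.20. The serotonin reuptake carrier Slc6a4 was at -1.47 ± 0.21 on Il10-/- arrays against -0.95 ± 0.39 on C57BL/6J arrays, a difference of -0.52 ± 0.14 (adjusted p = 0.0222). It was not called without Il10-/- AA pool 1, EPA pool 2 or OA pool 1 (adjusted p between 0.053 and 0.0575), nor under quantile normalization (adjusted p = 0.0572). Its highest values, -0.29 and -0.37, were on C57BL/6J EPA pool 1 and AA pool 1, and without both arrays the difference was -0.30 ± 0.08 (adjusted p = 0.0247). Of 6 endocrine cell markers 3 were called lower: Chga (-0.78), Chgb (-0.45) and Tph1 of serotonin synthesis (-0.32). Pyy (0.03), Gcg (0.01) and Insl5 (-0.09) were not called. Tph1 was highest on the C57BL/6J CO arrays (0.71 and 0.53), where Slc6a4 was at -0.97 and -1.23. The part of these cells in the values of Slc6a4 was not tested. The taurine carrier Slc6a6 (-0.28 ± 0.07, adjusted p = 0.0169) and the transmitter and taurine carrier Slc6a13 (-0.29 ± 0.08, adjusted p = 0.018) were also lower. The Slc6a13 call ended without Il10-/- CO pool 2 (adjusted p = 0.0503) and under quantile normalization (adjusted p = 0.512).

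Means of immune cell markers were higher in Il10-/- mice, as were some carriers known from immune cells. The mean of 10 leukocyte markers was 0.54 to 0.86 on Il10-/- arrays and -0.11 to 0.18 on C57BL/6J arrays, and that of 4 neutrophil markers was 0.52 to 1.62 on Il10-/- arrays and -1.01 to -0.24 on C57BL/6J arrays. Slc15a3, Slc2a6 and Slc7a2, all called higher, and Slc7a5, which was not called, are known from leukocytes, and Slc16a3 from cells that run glycolysis. The other carriers called higher are not tied to immune cells here. On the 4 Il10-/- arrays of CO and OA, Slc16a3 was between -0.10 and 0.16 and the neutrophil mean between 1.02 and 1.62. On the 2 Il10-/- arrays of AA, Slc16a3 was at -0.68 and -0.67 and the neutrophil mean at 0.54 and 0.52. The mean of 0.52 leaves out Cxcr2, which had no value on that array. On the 2 of EPA, Slc16a3 was at -0.65 and -0.48 and the neutrophil mean at 1.27 and 1.34. Single neutrophil markers differed. Csf3r was 0.69 to 0.94 on the CO and OA arrays of Il10-/- mice, against 0.20 to 0.30 on their other arrays. S100a9 was 2.08 to 2.87 with CO or OA, 2.85 and 2.94 with EPA, 1.30 and 1.08 with AA. The leukocyte mean was 0.54 to 0.86 with CO or OA, a range that holds the 0.58 to 0.74 of the other Il10-/- arrays. Its lowest value, 0.54, was on CO pool 1, where Slc16a3 was at 0.05. The part of these cells in the differences was not tested.

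Fat cell markers moved with some of the carriers that were lower. The mean of 6 fat cell markers was -0.25 to 0.65 on Il10-/- arrays and -0.01 to 1.90 on C57BL/6J arrays, highest on C57BL/6J EPA pool 1 and AA pool 1, with Fabp4 tied on 12 arrays. Slc7a10, a carrier of small neutral amino acids found on fat cells, lay between -0.03 and 0.50 (median 0.36) on Il10-/- arrays, against 0.01 to 2.06 (median 1.10) on C57BL/6J arrays. Its difference was -0.78 ± 0.19 (adjusted p = 0.0129), and without the 2 C57BL/6J arrays it was -0.56 ± 0.17 (adjusted p = 0.0582). Slc1a3 likewise read -0.24 ± 0.08 (adjusted p = 0.066) without them, and Slc36a2, a proton-coupled amino acid carrier, -0.29 ± 0.16 (adjusted p = 0.304) after -0.48 ± 0.18 (adjusted p = 0.0926) with them. The C57BL/6J array of CO pool 2 had a fat marker mean of -0.01, within the Il10-/- range. There Slc7a10 was at 0.01, within the Il10-/- range too, while Slc2a4 was at -1.57, above every Il10-/- array. Without the 2 arrays Slc2a4 differed by -1.23 (adjusted p = 0.00045). Muscle also makes GLUT4, and the mean of 7 smooth muscle markers was -0.12 to 0.20 on Il10-/- arrays and 0.11 to 0.60 on C57BL/6J arrays. Of those 7, Acta2, Actg2 and Cnn1 were tied on 11 to 16 arrays, and the mean of the other 4 was -0.20 to 0.29 on Il10-/- arrays and 0.08 to 0.95 on C57BL/6J arrays. Its part was not tested.

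**Figure D3:**
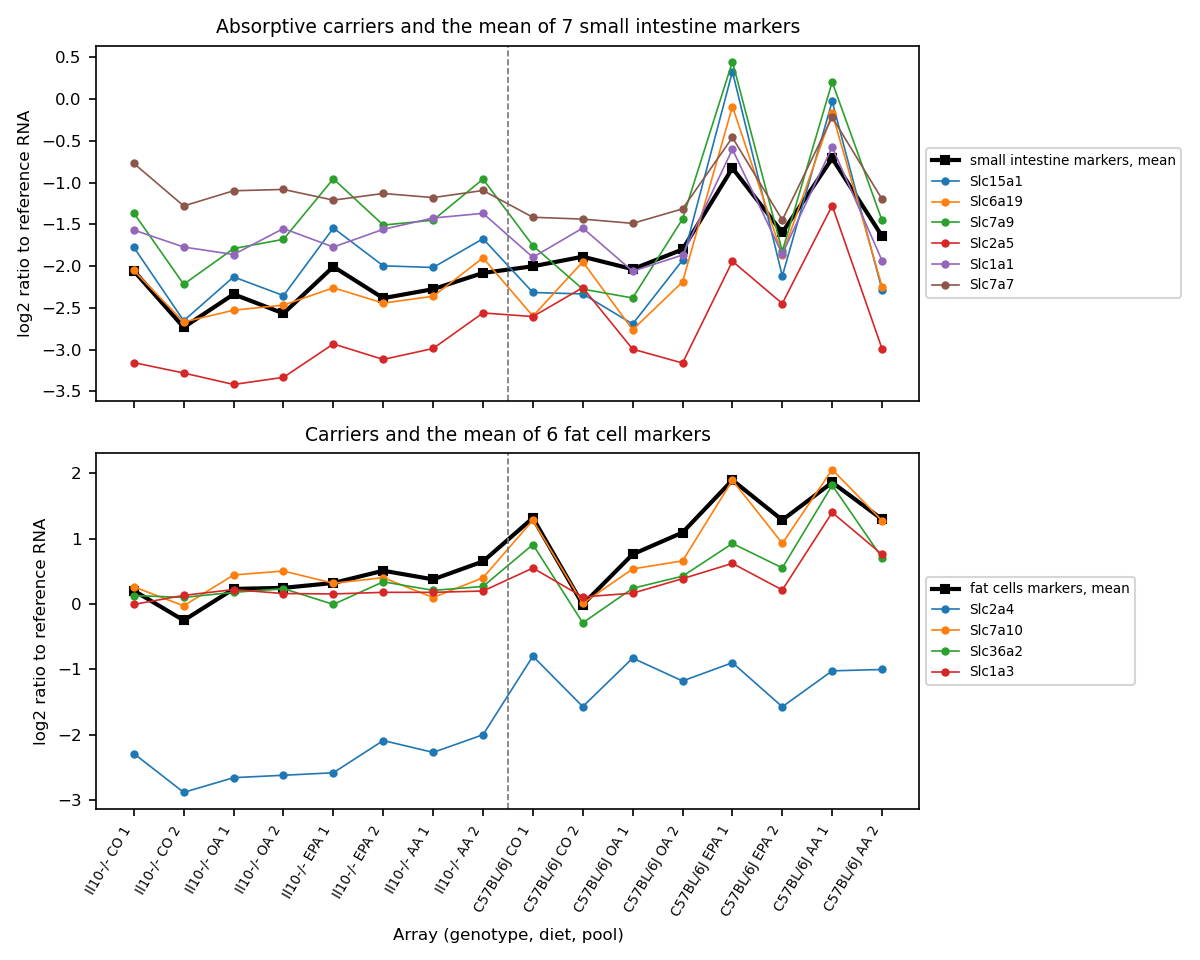
Carriers and marker means on each of the 16 arrays, Il10-/- left of the dashed line and C57BL/6J right of it. The upper panel sets 6 absorptive carriers beside the mean of 7 small intestine markers, and the lower panel sets 4 carriers beside the mean of 6 fat cell markers, in log2 ratios to the reference. In the upper panel C57BL/6J EPA pool 1 and AA pool 1 rise above all other arrays, and in the lower panel Slc2a4 lies lower on every Il10-/- array.

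Several carriers that absorb nutrients in the small intestine were high on the same 2 C57BL/6J arrays, and Slc15a1, Slc6a19 and Slc7a9 were not called by genotype. Slc15a1, the peptide carrier PEPT1, lay between -2.65 and -1.54 on the 8 Il10-/- arrays, against 0.33 on C57BL/6J EPA pool 1, -0.03 on C57BL/6J AA pool 1 and -2.69 to -1.93 on the other 6. The neutral amino acid carrier Slc6a19 lay between -2.67 and -1.90 on Il10-/- arrays, against -0.09 and -0.17 on those 2 C57BL/6J arrays and -2.76 to -1.87 on the other 6. The cystine carrier Slc7a9 lay between -2.22 and -0.95 on Il10-/- arrays, against 0.45 and 0.20 on those 2 C57BL/6J arrays and -2.38 to -1.44 on the other 6. In all, 17 of 94 carriers (18.1%) had both of these arrays above the other 14, against 2.75% of all genes and features. Among the 17 were the glutamate carrier Slc1a1, Slc7a7, Slc3a1 (the partner of Slc7a9), Slc5a1, Slc6a4, Slc16a10 and Slc43a2. The 17 also held Slc7a10, named above for fat cells, and Slc36a2, Slc6a9, Slc6a7 and Slc7a15. Slc2a2, of the inner face of the gut epithelium, was not among them. It was at -2.58 and -2.24 on those 2 arrays, within the -2.62 to -1.85 of the other 6 C57BL/6J arrays. The SD of Slc15a1 over the C57BL/6J arrays was 1.15 with these arrays and 0.25 without them. The differences of Slc15a1 (-0.35 ± 0.37, adjusted p = 0.6), Slc6a19 (-0.60 ± 0.31, adjusted p = 0.226) and Slc7a9 (-0.18 ± 0.33, adjusted p = 0.776) were not called. Without the 2 arrays they were 0.24 ± 0.17 (adjusted p = 0.418), -0.12 ± 0.15 (adjusted p = 0.688) and 0.31 ± 0.20 (adjusted p = 0.379), so 2 of the 3 changed sign. Slc3a1 (-0.38 ± 0.21, adjusted p = 0.269), Slc1a1 (-0.07 ± 0.20, adjusted p = 0.87) and the neutral amino acid carrier Slc7a8 (-0.27 ± 0.11, adjusted p = 0.129) were not called either. Over all carriers, 8 higher and 13 lower were called without the 2 arrays, where 14.1% of all genes and features were.

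Most carriers called over all diets kept the sign of their difference on each diet, but few were called on every diet. The sign turned for Slc16a1 on EPA, for Slc6a6 on EPA (-0.16 in Il10-/- mice against -0.18 in C57BL/6J mice) and for Slc38a10 on AA (-0.01 against 0.08). On EPA Slc5a6 was at -0.31 in Il10-/- mice against -0.13 in C57BL/6J mice, and its arrays overlapped. On CO 11 of 95 carriers were called (background 8.57%), on OA 8 (background 5.06%), on EPA 4 (background 1.63%) and on AA 4 (background 1.32%). Slc16a3, Slc5a9 and Slc16a11 were called on all 4 diets (3.16%, background 0.765%). Slc16a9 was called on CO, OA and AA, and Slc5a8, Slc15a3, Slc2a4 and Slc5a6 on CO and OA. Calls on a single diet were Slc7a11, Slc16a12 and the lysosomal histidine carrier Slc15a4 on CO and Slc2a6 on EPA. These counts rest on 2 arrays a group. Without C57BL/6J CO pool 1 the CO count was 27, and without either Il10-/- CO array it was 7. The EPA count was 2 without Il10-/- EPA pool 2. The AA count was 1 without Il10-/- AA pool 1, 2 without Il10-/- AA pool 2 or C57BL/6J AA pool 1, and 8 without either C57BL/6J CO array.

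**Figure D4:**
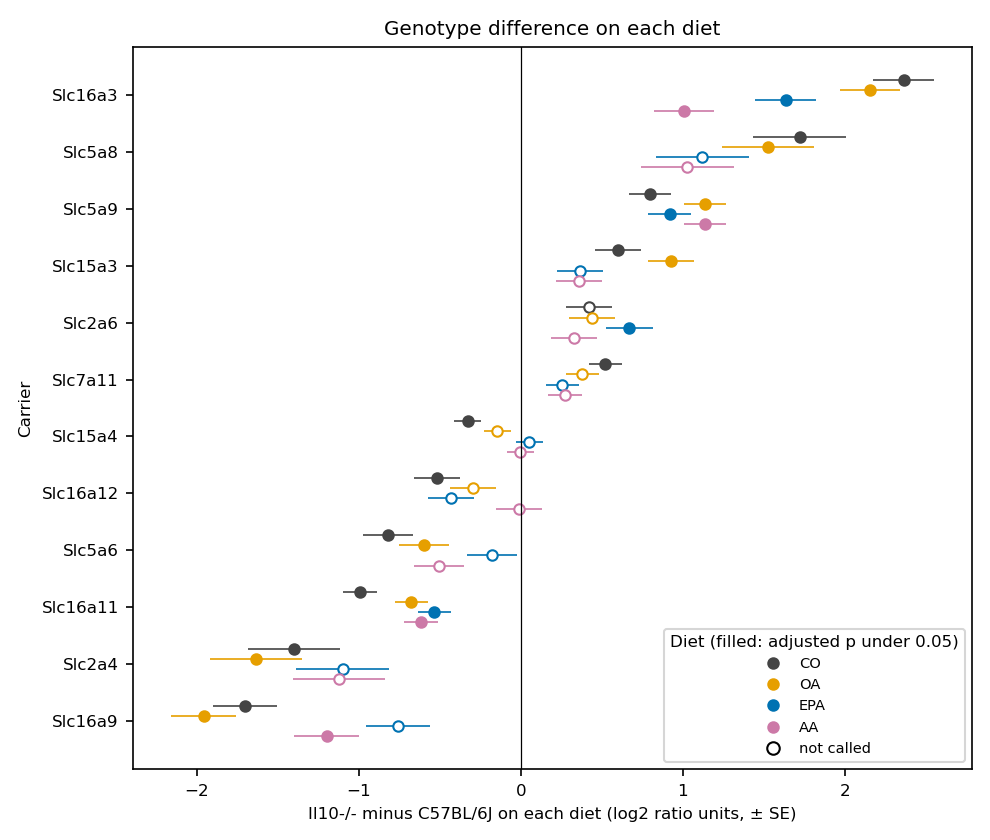
Genotype difference on each diet for the 12 carriers called on at least 1 diet. The x axis is Il10-/- minus C57BL/6J in log2 ratio units with the SE, diets run CO, OA, EPA, AA downward in each row, and filled points are called. Slc16a3 lies right of 0 on all 4 diets and Slc16a11 left of 0 on all 4.

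Slc16a3 and Slc16a9 are given diet by diet, since both were called on at least 3 diets with unequal sizes. Slc16a3 was 0.05 and -0.10 on the 2 Il10-/- arrays of CO, against -2.52 and -2.25 in C57BL/6J mice, and on OA it was -0.08 and 0.16 in Il10-/- mice, against -2.14 and -2.09 in C57BL/6J mice. On EPA it was -0.65 and -0.48 in Il10-/- mice, against -2.42 and -1.97 in C57BL/6J mice, and on AA -0.68 and -0.67 in Il10-/- mice, against -1.39 and -1.97 in C57BL/6J mice. The genotypes were apart by 2.36 ± 0.19 on CO, 2.16 ± 0.19 on OA, 1.63 ± 0.19 on EPA and 1.01 ± 0.19 on AA. Slc16a9 was apart by -1.70 ± 0.20 on CO, -1.96 ± 0.20 on OA, -0.76 ± 0.20 on EPA (adjusted p = 0.0933) and -1.20 ± 0.20 on AA. An F test of the interaction of genotype and diet called 0 of 95 carriers (background 0), with 6 at an unadjusted p under 0.05 (6.32%, background 6.67%). Its smallest adjusted p among the carriers was 0.353, for Slc16a3. Without C57BL/6J CO pool 1 the F test called Slc16a4, a carrier whose substrate is not established (adjusted p = 0.0313).

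Diet contrasts within a genotype called no carrier. In Il10-/- mice, limma called 0 of 95 for OA minus CO (background 0), EPA minus OA (background 0), AA minus OA (background 0.00386%) and EPA minus AA (background 0). At an unadjusted p under 0.05 the counts were 3 (background 1.5%), 6 (background 4.27%), 12 (background 7.15%) and 2 (background 3.39%). The carriers with the smallest p were the betaine carrier Slc6a12 (-0.38), Slc7a13 (-0.37) and Slc38a3 (-0.30) for OA minus CO, and Slc16a9 (0.81), Slc16a3 (-0.60) and Slc5a6 (0.43) for EPA minus OA. For AA minus OA they were Slc16a3 (-0.71), Slc6a12 (0.51) and Slc16a9 (0.64), and for EPA minus AA Slc7a2 (0.37), Slc16a12 (-0.40) and Slc6a6 (0.30). The EPA and AA contrasts with OA share the OA arrays. The smallest adjusted p in these 4 contrasts was 0.474.

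The mean of the EPA and AA diets was also set against the mean of OA and CO. In Il10-/- mice this called 0 carriers (background 0.0811%) and 11 at an unadjusted p under 0.05 (11.6%, background 9.01%). Slc16a9 differed by 0.72 ± 0.14 (adjusted p = 0.109), Slc16a3 differed by -0.63 ± 0.13 (adjusted p = 0.13) and Slc5a6 by 0.41 ± 0.11 (adjusted p = 0.238). For each of these 3 the sign was opposite to that of its genotype difference. All 4 Il10-/- arrays of EPA and AA had lower Slc16a3 and higher Slc16a9 than all 4 of CO and OA, and for Slc5a6 they were likewise higher. These 3 carriers were named for their small p in this same contrast, so the separation of the same arrays is not separate evidence. Without Il10-/- EPA pool 2 Slc16a9 was called at 0.89 (adjusted p = 0.0422), and without the 2 C57BL/6J arrays with high small intestine markers Slc16a3 was called at -0.63 (adjusted p = 0.0457). The same contrast was compared between the genotypes. Its difference, Il10-/- minus C57BL/6J, was -0.94 ± 0.19 for Slc16a3 (adjusted p = 0.13) and 0.85 ± 0.20 for Slc16a9 (adjusted p = 0.196), and 0 carriers were called (background 0), with 13 at an unadjusted p under 0.05 (13.7%, background 8.5%). Without C57BL/6J AA pool 2 that of Slc16a3 was called at -1.08 (adjusted p = 0.0477), and without C57BL/6J CO pool 1 that of Slc16a4 at 0.56 (adjusted p = 0.0416).

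In C57BL/6J mice 0 carriers were called for OA minus CO (background 0.0154%), EPA minus OA (background 0), AA minus OA (background 0), EPA minus AA (background 0) and the mean of EPA and AA minus that of OA and CO (background 0.0193%). At an unadjusted p under 0.05 the counts were 5 (background 11.2%), 5 (background 5.94%), 8 (background 3.34%), 3 (background 3.09%) and 17 (background 7.75%). The smallest p values were those of Slc16a11 (-0.39), Slc5a9 (-0.41) and Slc38a11 (-0.27) for OA minus CO, and of Slc6a14 (-0.90), Slc6a19 (1.50) and Slc2a5 (0.88) for EPA minus OA. For AA minus OA they were those of Slc1a3 (0.80), Slc7a10 (1.07) and Slc36a2 (0.93), and for EPA minus AA of Slc1a3 (-0.66), Slc16a3 (-0.52) and Slc6a14 (-0.64). For the mean of EPA and AA they were those of Slc2a10 (-0.33), Slc7a10 (0.92) and Slc1a3 (0.45). Slc6a19, Slc2a5, Slc7a10 and Slc36a2 are carriers that were highest on the 2 arrays with high small intestine and fat markers, which are EPA and AA arrays. The OA minus CO count was 7 without C57BL/6J CO pool 1, with Slc38a4, Slc7a12, Slc2a12, Slc16a4, Slc5a12, Slc2a2 and Slc6a18 all lower on OA. On the array that then stands for CO, C57BL/6J CO pool 2, each of these 7 had its highest value among the 8 C57BL/6J arrays. Without C57BL/6J AA pool 2, Slc2a5 was called for AA minus OA (1.80, adjusted p = 0.0281) and for the mean of EPA and AA (1.02, adjusted p = 0.031). Without C57BL/6J CO pool 1, Slc36a2 (0.98), Slc7a10 (1.23) and Slc7a12 (-0.37) were called for that mean.

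Families differed in how far their members spread. All 4 Slc36 and all 3 Slc43 members had differences below 0, between -0.48 and -0.00 and between -0.18 and -0.07, with 0 called in either. In Slc6, 13 of 16 differences were below 0 and 4 were called, all lower. In Slc1, 5 of 7 were below 0 and 2 were called, both lower. Of all genes and features 54.3% were below 0 and 8.12% were called lower. Slc2, Slc5, Slc7, Slc16 and Slc38 held calls in both directions. Relative to the reference, 44 carriers were below 0 on all 16 arrays and 9 above 0 on all 16. The 9 were Slc1a5, Slc2a6, Slc2a13, Slc6a7, Slc6a14, Slc7a4, Slc16a1, Slc38a1 and Slc38a2. Carriers of kidney and liver, such as the renal glucose carrier Slc5a2 (-3.72 ± 0.15 on Il10-/- arrays against -3.58 ± 0.19 on C57BL/6J arrays), were far below 0, and the reference holds both organs.

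Of the 27 calls, 14 held in each of 27 other settings and 13 were lost in at least 1. The 14 include Slc16a3, Slc16a9, Slc16a11, Slc5a8, Slc5a9, Slc2a4, Slc15a3, Slc5a6, Slc2a6 and Slc7a11. The counts were 7 to 12 higher and 12 to 24 lower when each array was left out in turn, with 12 higher and 24 lower without C57BL/6J CO pool 1 (background 23.3%) and 7 higher and 12 lower without Il10-/- OA pool 1 (background 14.7%) or Il10-/- CO pool 2 (background 14.1%). Of the 27 called carriers, 9 have several features, which had 1 sign in 8, and 18 rest on 1 feature.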

How the data were processed

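Colon RNA pools of Il10-/- and C57BL/6J mice were labelled with Cy3 and hybridised with a Cy5-labelled common reference on 16 Agilent arrays. The log2 ratios are used as deposited. Per the submitters' processing notes limma was used, with no version or role given. How the background was corrected, how arrays were normalized, which log base was taken and why values are missing is not given in the sources used here. Of 44290 features in the table, 37252 with a value in each of 8 groups were kept. Features were averaged per platform symbol, which gave 17995 named genes and 7897 unnamed features. No brightness was used, so spots near background could not be told from others.

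Contrasts were fitted in limma 3.58.1 under R 4.3.3 (lmFit on 8 group means over 16 arrays, contrasts.fit, eBayes, with 8 residual and 4.07 prior degrees of freedom), adjusted by Benjamini-Hochberg over 25892 tests. The same code was tested on simulated data. Tables and figures used Python 3.11.15, numpy 2.4.6, pandas 2.3.3 and matplotlib 3.10.9. The members, gene lists and tests were chosen with earlier results of these data known. Named with values are called carriers that differ by at least 0.5, the 12 others with the smallest p among those called, the best known carrier of each role in colon, and, per diet contrast, the 3 with the smallest p. Alternatives changed tied values, normalization, centring, weights, missing values, features of a symbol, the empirical Bayes step, the label of 1 array, the replicate block, the model, and each array left out in turn. Leaving out 2 C57BL/6J arrays together was chosen after seeing the data.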

Additional observations from a re-analysis of the deposited data

How the results depend on the processing

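Of 27 calls by genotype, 14 held in all 27 other settings and 13 were lost in at least 1, and 1 turned its sign, Slc5a10, which read 0.039 (adjusted p = 0.776) under quantile normalization. That normalization called 10 carriers higher and 11 lower, so 47.6% of calls were higher, against 33.3% as reported, with 9 higher and 18 lower. Leaving out 1 array gave 7 to 12 higher and 12 to 24 lower. The CO count of 11 was 5 with array weights and 4 with only the 4 CO arrays, and 7 to 27 without 1 array. The OA count of 8 was 16 with array weights and 6 to 11 without 1 array. The EPA count of 4 was 7 with Il10-/- OA pool 1 counted as EPA, 1 with only the 4 EPA arrays, and 2 to 5 without 1 array. The AA count of 4 was 8 with array weights, 2 without both C57BL/6J arrays that stood apart, and 1 to 8 without 1 array. For the mean of EPA and AA in Il10-/- mice the count of 0 was 2 with array weights (Slc16a3, adjusted p = 0.0354, and Slc16a9, adjusted p = 0.0301), 1 without those 2 arrays, and 0 to 1 without 1 array. In C57BL/6J mice, leaving out 1 array gave 0 to 7 for OA minus CO, 0 to 1 for AA minus OA and 0 to 3 for the mean of EPA and AA. It gave 0 to 1 for the difference of that effect between genotypes and 0 to 1 for the F test. The other diet contrasts stayed at 0 calls in each setting run. The cause of these moves was not tested.

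With the pool number as a replicate block, 10 carriers were called higher and 20 lower, with 11 on CO, 8 on OA, 4 on EPA, 5 on AA and 0 in every diet contrast. Slc7a2 lost its call (adjusted p = 0.0523). Over 28 pairs of groups, the correlation of same-numbered pools' deviations lay between -0.35 and 0.38 (median 0.06), with 11 over 0.1, and the numbers were not treated as pairs. Even so, 4 of 93 carriers (4.3%, against 1.03% of all genes and features) differed between pool 1 and pool 2 with 1 sign in all 8 groups: Slc2a3 higher in pool 1, and Slc15a2, Slc16a1 and Slc16a14 lower. Whether pools of 1 number share a source was not tested.

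With 2 arrays a group and pools of 2 to 3 mice, small differences could not be told from the spread, and no brightness was used to find dim spots.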

Other observations

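Some relatives carry a letter after their symbol and so were not counted among the 95. Slc6a20a, a proline carrier of gut and kidney, lay between -1.96 and -1.27 (median -1.61) on Il10-/- arrays, against -1.45 to 1.47 (median -0.85) on C57BL/6J arrays. Its difference was -1.19 ± 0.34 (limma's adjusted p = 0.0288). The highest values, 1.47 and 1.28, were on C57BL/6J EPA pool 1 and AA pool 1. The mean of small intestine markers and several absorptive carriers were also highest there. Its relative Slc6a20b differed by 0.11 ± 0.06 (adjusted p = 0.277). The Slc5 relatives Slc5a4a (-0.19 ± 0.09, adjusted p = 0.192) and Slc5a4b (-0.02 ± 0.05, adjusted p = 0.873) were not called.

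Neighbouring carriers on a chromosome did not always share a call. Slc16a11 and Slc16a13, next to each other on chromosome 11, were both lower in Il10-/- mice. On chromosome 6, Slc6a13 was lower and its neighbour Slc6a12 was not called (-0.10 ± 0.07, adjusted p = 0.392). On chromosome 15, Slc38a1 (-0.05 ± 0.06), Slc38a2 (-0.08 ± 0.05) and Slc38a4 (-0.10 ± 0.07) lay in a row and none was called.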
